A study of Mus musculus with 96 samples.

Results

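The genes described are the activating transcription factors of the circadian clock: Arntl, which encodes BMAL1, its paralog Arntl2, which encodes BMAL2, and Clock with its paralog Npas2. They were chosen by name, as the genes of the count table that carry these symbols, and they are 4 of the 56748 genes in the table. BMAL1 pairs with CLOCK or NPAS2, and the pair binds E-box sequences and switches on the Period and Cryptochrome genes, whose proteins in turn inhibit the pair. REV-ERB receptors repress Arntl and ROR receptors activate it, so that Arntl RNA rises and falls over the day in most tissues. Feeding time is a known time cue for the clocks of liver and other peripheral tissues, while light sets the clock of the suprachiasmatic nucleus.

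The study asked how a daily fast changes gene expression across organs of the mouse. Male C57BL/6 mice were fed ad libitum (AL) or kept on intermittent fasting (IF), 16 h each day, from 6 weeks of age for 4 months. Lights were on from hour 7 to hour 19 of the day, food was withheld from hour 16 to hour 8, and tissues were collected between hour 7 and hour 12, which the methods describe as the end of the fast of the IF mice, although it runs past hour 8. Poly-A RNA of liver, muscle and cortex was sequenced, and the deposited values are read counts per gene.

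AL mice 1 to 8 and IF mice 9 to 16 were labelled male, and AL mice 25 to 32 and IF mice 33 to 40 were labelled female. The strain, age and hours above are stated for male mice. For mice 25 to 40 the labels gave the tissue, sex and diet, and their strain, age, time on the diets and hours of collection are not given in the sources used here. The 12 groups of tissue, diet and mouse numbers held 8 libraries each, apart from 7 in the cortex of AL mice 1 to 8, and the tissues of a mouse carry its number. Total counts of the 95 libraries used ran from 26097314 to 49838004, so that each count was divided by its library's total and printed in CPM. At least 1 count was found for 42472 genes.

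The cortex library of AL mouse 1 went against its label and was left out. It was labelled male and held 213 CPM of Xist, the RNA of the inactive X chromosome, and 0 CPM of 4 genes of the Y chromosome (Ddx3y, Uty, Kdm5d and Eif2s3y). In the other 47 libraries labelled male Xist was at most 0.612 CPM and the Y genes summed to 67.9 to 177 CPM, and in the 48 labelled female Xist was 36.8 to 1627 CPM. The omitted library was closest to the cortex library of IF mouse 40, with a mean chi-square per gene of 4.43, the lowest of 1488 pairs of libraries of 1 tissue, against 8.12 for the next pair. No 2 libraries were identical. In the omitted library Arntl stood at 21.4, Arntl2 at 10.3, Clock at 35.2 and Npas2 at 31.98 CPM, and the diet differences and ratios in the cortex of mice 1 to 16 are given with and without it, while other cortex results leave it out unless stated.

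Tissue labels fitted their markers. In liver libraries 6 of 6 hepatocyte genes summed to 45442 CPM or more, with Alb the most abundant, to at most 210 CPM in muscle, and to at most 4271 CPM in cortex, where Ttr led. In muscle libraries 6 of 6 skeletal muscle genes, led by Acta1, summed to 115864 CPM or more, and to at most 32.5 CPM elsewhere. In cortex libraries 6 of 6 neuronal genes, led by Camk2a, summed to 7329 to 9596 CPM, against 281 to 474 CPM in muscle, where Camk2a led too, and at most 14.7 CPM in liver.

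The members lie on 4 chromosomes of GRCm39. Arntl (ENSMUSG00000055116) is at chr7:112806672-112913333 on the plus strand with 7523 bases of gene length in the table, and Arntl2 (ENSMUSG00000040187) at chr6:146697553-146735027 on the plus strand with 5691 bases. Clock (ENSMUSG00000029238) is at chr5:76357715-76452639 on the minus strand with 13727 bases, and Npas2 (ENSMUSG00000026077) at chr1:39232812-39402317 on the plus strand with 4791 bases. The strand setting of the counting is not given in the sources used here, so reads of a member and of a gene inside it on either strand cannot be told apart. Clock holds 2 other annotated genes, of which the pseudogene Ube2n-ps1 reached 4.90 CPM (median 0.556), and Npas2 holds 2, of which the pseudogene Gm3617 reached 3.85 CPM (median 0.0819). Arntl holds the antisense Gm45355, at most 0.196 CPM, and Arntl2 holds none.

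On the scale of library totals, cortex carried the highest CPM of each member; with TMM scaling this did not hold for Arntl and Clock in mice 1 to 8, as given below for tissues. Ordered by median CPM over the 12 groups, the 4 cortex groups came first for Arntl, Arntl2, Clock and Npas2. For Npas2 the range of the lowest cortex group (24.96 to 38.95 CPM) lay above that of the next group, liver of AL mice 1 to 8 (1.94 to 14.8 CPM), and the same break stood between cortex and the other tissues for Arntl2 (7.45 to 9.05 against 1.61 to 4.32 CPM). For Arntl the cortex range of IF mice 33 to 40 (22.1 to 29.3 CPM) overlapped that of muscle in AL mice 1 to 8 (15.7 to 24.6 CPM). Of the 11 neighbouring pairs of groups in each order, the ranges were apart in 1 for Arntl, 1 for Arntl2, 0 for Clock and 3 for Npas2, so most neighbours did not differ beyond their spread.

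**Figure D1:**
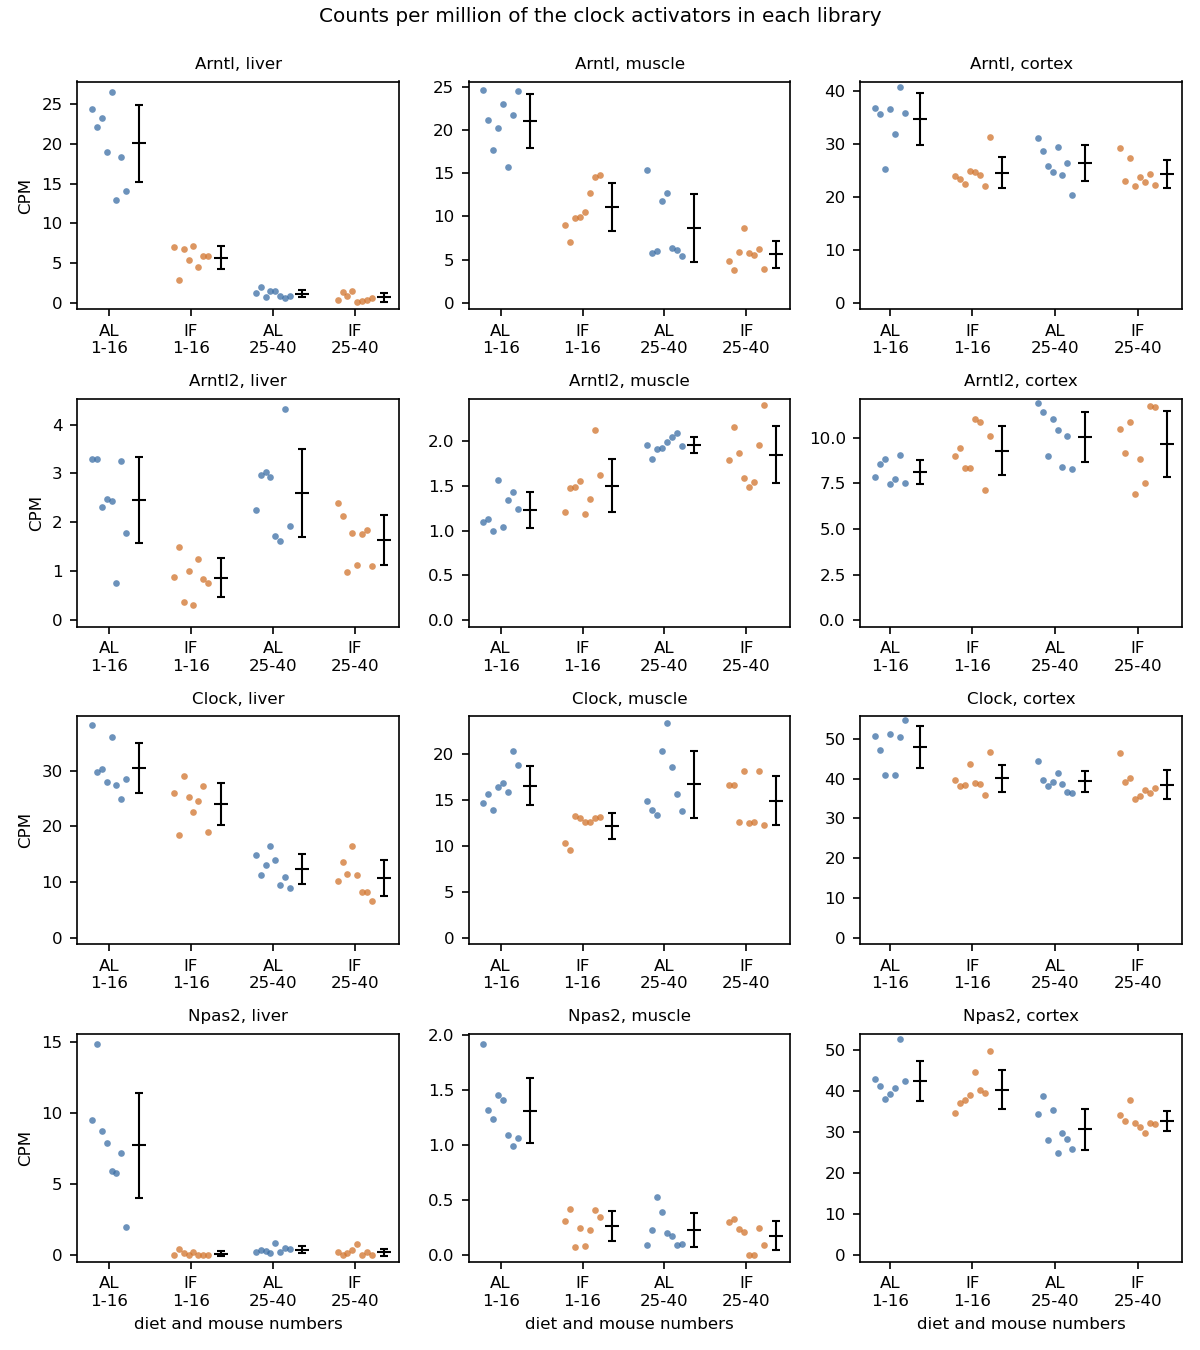
Level of each member in CPM (linear axis) in each of the 95 libraries, by tissue, diet and mouse numbers, where a point is 1 mouse and the black mark is the mean ± SD of its group. Npas2 in the liver of mice 1 to 16 runs from 1.94 to 14.8 CPM under AL and from 0 to 0.404 CPM under IF.

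The first comparison asked which activators differ between IF and AL. In mice 1 to 16, the difference passed an adjusted p of 0.05 in edgeR's quasi-likelihood test for 4 of 4 members in liver, 3 of 4 in muscle and 2 of 4 in cortex, and each of these was lower under IF. Npas2 passed the low-count filter in liver and muscle only through its AL libraries, so nothing is read from its being among the calls; without it they are 3 of 3 in liver and 2 of 3 in muscle. Of all genes tested, 44.6% were called in liver, 23.0% in muscle and 7.21% in cortex (1332 genes, against 294 with the omitted library and 498 without AL mouse 2 and IF mouse 10), and 21.1%, 11.6% and 3.43% were called as lower under IF. None of the members was called in mice 25 to 40 by edgeR or DESeq2, out of 3 tested in liver, 3 in muscle and 4 in cortex; an unadjusted p under 0.05 was reached by Arntl2 in liver and by Arntl in muscle. Npas2 failed the low-count filter in liver and muscle there. Of all genes, 0% were called in liver, 0.00653% in muscle and 0.0109% in cortex, which are 0, 1 and 2 genes in edgeR, where 919, 1644 and 2069 genes had an unadjusted p under 0.05 and DESeq2 called 6, 97 and 68. In whole tissue, fewer cells of a type and less RNA per cell cannot be told apart. Because the hour at which each mouse was collected is not given in the sources used here, a change of level and a shift of the daily rhythm cannot be told apart either.

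Arntl encodes BMAL1, the shared partner of CLOCK and NPAS2. In the liver of mice 1 to 16 its lowest, median and highest levels were 12.99, 20.5 and 26.5 CPM under AL (n = 8) and 2.85, 5.92 and 7.18 CPM under IF (n = 8). Every IF liver lay below every AL liver, and the medians differed 3.47-fold. The log2 fold change was -1.91 ± 0.16 (SE; adjusted p = 1.55e-09). Among mice 25 to 40 Arntl was scarce in the liver under both diets, with 0.654, 1.05 and 1.95 CPM under AL (n = 8) and 0.150, 0.472 and 1.54 CPM under IF (n = 8). The ranges overlapped, although 5 of 8 IF livers lay below all AL livers, and the log2 fold change of -0.75 ± 0.43 did not pass (adjusted p = 0.850).

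Muscle gave Arntl levels of 15.7, 21.4 and 24.6 CPM in AL mice 1 to 8 (n = 8) and of 7.004, 10.2 and 14.9 CPM in IF mice 9 to 16 (n = 8). Again the groups did not overlap, and Arntl fell by 1.003 ± 0.13 (SE) on the log2 scale (adjusted p = 2.99e-05). Muscles of mice 25 to 40 held 5.40, 6.24 and 15.4 CPM under AL and 3.82, 5.67 and 8.71 CPM under IF (n = 8 each). AL mice 25, 28 and 29 stood at 15.4, 11.8 and 12.7 CPM, above every IF muscle, while the other AL mice lay within the IF range, and the log2 fold change was -0.56 ± 0.25 (adjusted p = 0.438).

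Cortex showed a smaller difference in Arntl. Levels in mice 1 to 16 were 25.3, 35.96 and 40.9 CPM under AL (n = 7) and 22.1, 24.1 and 31.3 CPM under IF (n = 8). All IF mice but mouse 16 lay below every AL mouse, and the log2 fold change was -0.48 ± 0.08 (adjusted p = 0.00357). With the omitted library it was -0.42 ± 0.10 (adjusted p = 0.0446). For mice 25 to 40 the levels were 20.4, 26.2 and 31.3 CPM under AL and 22.1, 23.4 and 29.3 CPM under IF (n = 8 each). No IF library lay outside the AL range, and the log2 fold change was -0.12 ± 0.07 (adjusted p = 0.511).

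Clock encodes the usual partner of BMAL1, and its differences were smaller than those of Arntl in liver and muscle. In the liver of mice 1 to 16 it stood at 24.9, 29.1 and 38.2 CPM under AL and at 18.5, 24.9 and 29.1 CPM under IF (n = 8 each). The ranges overlapped, with 4 of 8 IF livers below all AL livers, and the log2 fold change was -0.43 ± 0.11 (adjusted p = 0.00241). With the mean log2 level of 5 erythrocyte genes in the fit it was -0.26 ± 0.14 (adjusted p = 0.191), and with that of 4 endothelium genes -0.34 ± 0.18 (adjusted p = 0.187), so the call was lost in both. Both lists moved with the diet in these livers, so the lost call cannot tell cell content from diet. Clock in the liver of mice 25 to 40 was at 8.93, 12.2 and 16.4 CPM under AL and at 6.57, 10.8 and 16.5 CPM under IF (n = 8 each). These ranges overlapped, with 3 of 8 IF livers below all AL livers and 1 above them, and the log2 fold change was -0.17 ± 0.17 (adjusted p = 0.902).

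Muscle held 13.9, 16.1 and 20.3 CPM of Clock in AL mice 1 to 8 and 9.54, 12.8 and 13.3 CPM in IF mice 9 to 16 (n = 8 each). The groups did not overlap, but the step between them was small beside the spread within AL. The log2 fold change was -0.51 ± 0.08 (adjusted p = 0.000152). In mice 25 to 40 the levels were 13.3, 15.3 and 23.4 CPM under AL and 12.2, 14.6 and 18.1 CPM under IF (n = 8 each), with overlapping ranges. The log2 fold change was -0.09 ± 0.12 (adjusted p = 0.803).

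In the cortex of mice 1 to 16 Clock reached 41.0, 50.5 and 54.7 CPM under AL (n = 7) and 35.96, 38.9 and 46.7 CPM under IF (n = 8). Of the IF mice 6 of 8 lay below all AL mice, and the log2 fold change was -0.25 ± 0.07 (adjusted p = 0.0343). This call was lost with the omitted library, at -0.20 ± 0.08 (adjusted p = 0.152), and without AL mouse 2 and IF mouse 10, at -0.23 ± 0.08 (adjusted p = 0.109). Cortex levels in mice 25 to 40 were 36.4, 38.98 and 44.4 CPM under AL and 35.01, 37.3 and 46.4 CPM under IF (n = 8 each). The ranges overlapped, and Clock differed by -0.04 ± 0.05 on the log2 scale (adjusted p = 0.768).

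Npas2 encodes the paralog that can replace CLOCK, and it had the largest fold difference of the members in liver and in muscle of mice 1 to 16. In the liver of mice 1 to 16 it stood at 1.94, 7.54 and 14.8 CPM under AL and at 0, 0 and 0.404 CPM under IF (n = 8 each). No Npas2 count was found in 5 of 8 IF livers, where the 3 counts that a count of 0 allows would be 0.0747 to 0.0954 CPM, and mice 10, 11 and 13 held 16, 6 and 10 counts against 70 to 613 in the AL mice. The fitted log2 fold change was -6.22 ± 0.67 (adjusted p = 8.76e-07), and its size rests on these few counts. Since the gene passed the low-count filter through the AL livers, a difference was built into its being tested, and without a filter the log2 fold change was -6.26 ± 0.72 (adjusted p = 7.03e-06). Among mice 25 to 40 Npas2 was near the detection limit in liver under both diets, at 0.149, 0.320 and 0.869 CPM under AL and at 0, 0.161 and 0.749 CPM under IF (n = 8 each). The groups overlapped, and without a filter the log2 fold change was -0.85 ± 0.73 (adjusted p = 0.690).

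Muscle carried little Npas2. Mice 1 to 8 under AL had 0.994, 1.28 and 1.92 CPM, and mice 9 to 16 under IF had 0.0706, 0.276 and 0.418 CPM (n = 8 each). All IF mice were below all AL mice, at 2 to 14 counts against 32 to 56, and the log2 fold change was -2.38 ± 0.30 (adjusted p = 5.69e-06). Here too the gene passed the filter only through the AL mice, and without a filter the value was -2.37 ± 0.31 (adjusted p = 2.36e-09). In mice 25 to 40 the levels were 0.0929, 0.187 and 0.5258 CPM under AL and 0, 0.223 and 0.332 CPM under IF (n = 8 each), which is at most 19 counts in a library. These groups overlapped, and the log2 fold change without a filter was -0.27 ± 0.59 (adjusted p = 0.892).

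Cortex was different for Npas2, which is a forebrain gene. Its levels in mice 1 to 16 were 38.03, 41.3 and 52.7 CPM under AL (n = 7) and 34.7, 39.3 and 49.9 CPM under IF (n = 8). The ranges overlapped widely, and the log2 fold change was -0.06 ± 0.07 (adjusted p = 0.657), or -0.02 ± 0.08 with the omitted library (adjusted p = 0.919). Levels in mice 25 to 40 were 24.96, 29.1 and 38.95 CPM under AL and 29.7, 32.3 and 37.96 CPM under IF (n = 8 each). Every IF library of these lay inside the AL range, and the log2 fold change was 0.09 ± 0.07 (adjusted p = 0.603).

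Arntl2 encodes BMAL2, a partner of CLOCK that is less studied than BMAL1. In the liver of mice 1 to 16 it stood at 0.766, 2.46 and 3.30 CPM under AL and at 0.318, 0.860 and 1.49 CPM under IF (n = 8 each). Only AL mouse 6, at the lowest AL value, lay within the IF range, and the log2 fold change was -1.57 ± 0.34 (adjusted p = 0.000557). Among mice 25 to 40 the liver levels were 1.61, 2.59 and 4.32 CPM under AL and 0.991, 1.77 and 2.40 CPM under IF (n = 8 each). The ranges overlapped, and the log2 fold change of -0.61 ± 0.25 did not pass (adjusted p = 0.823).

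In muscle Arntl2 went the other way in mice 1 to 16, without passing the test. Its levels were 0.994, 1.18 and 1.57 CPM under AL and 1.19, 1.48 and 2.12 CPM under IF (n = 8 each). IF mice 15 and 16 were above all AL mice, and the log2 fold change was 0.21 ± 0.16 (adjusted p = 0.384). In mice 25 to 40 the levels were 1.80, 1.95 and 2.10 CPM under AL and 1.49, 1.83 and 2.40 CPM under IF (n = 8 each), so that the AL mice lay inside the IF range, and the log2 fold change was -0.02 ± 0.13 (adjusted p = 0.980).

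Cortex held 7.45, 7.86 and 9.05 CPM of Arntl2 in AL mice 2 to 8 (n = 7) and 7.13, 9.23 and 11.01 CPM in IF mice 9 to 16 (n = 8). Although 4 of 8 IF mice were above all AL mice, the log2 fold change of 0.20 ± 0.09 did not pass (adjusted p = 0.195), nor did 0.15 ± 0.10 with the omitted library (adjusted p = 0.413). Mice 25 to 40 had 8.26, 10.2 and 11.9 CPM under AL and 6.94, 9.84 and 11.7 CPM under IF (n = 8 each). The ranges overlapped, and the log2 fold change was -0.06 ± 0.11 (adjusted p = 0.836).

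**Figure D2:**
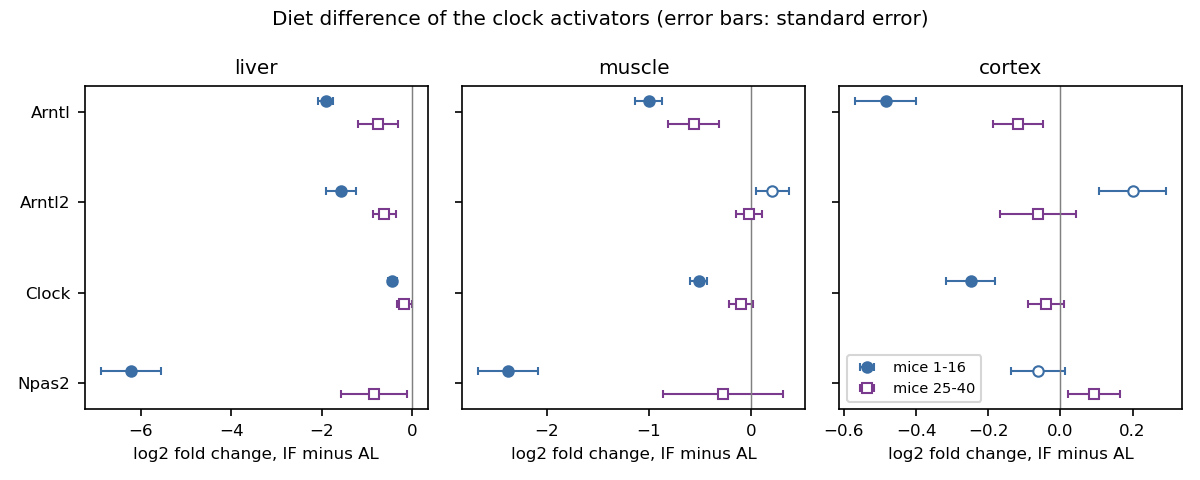
Log2 fold change of each member, IF minus AL (horizontal axis, a separate scale for each tissue), for mice 1 to 16 (circles) and mice 25 to 40 (squares), with bars of 1 standard error; filled symbols have an adjusted p under 0.05. The 4 members in liver, 3 in muscle and 2 in cortex of mice 1 to 16 are filled, from -6.22 for Npas2 in liver to -0.25 for Clock in cortex, and no square is filled.

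Markers of other cell types moved with the diet in mice 1 to 16, beside the differences in the members. In liver, 5 of 5 erythrocyte genes, led by Hba-a1 and none at 0, summed to 362, 569 and 956 CPM under AL (lowest, median and highest) and to 667, 2070 and 6879 CPM under IF. The 4 of 4 endothelium genes, led by Kdr, summed to 42.7, 45.6 and 61.0 CPM under AL and to 64.8, 75.7 and 109 CPM under IF. In muscle, 5 of 5 adipocyte genes, led by Cfd, summed to 30.1, 93.2 and 331 CPM under AL and to 112, 714 and 1860 CPM under IF. In cortex, 4 of 4 glia genes, led by Mbp, summed to 3650, 4503 and 5594 CPM under AL and to 4825, 6383 and 7971 CPM under IF, while the endothelium genes, led there by Cldn5, summed to 127, 146 and 165 CPM and to 94.5, 109 and 140 CPM. Leukocyte and macrophage genes (5 of 5, led by Lyz2) summed in liver to 18.6, 29.6 and 35.7 CPM under AL and to 20.3, 28.5 and 86.3 CPM under IF. Among the lists whose sum fell beside the members were the adipocyte genes in liver and the leukocyte and macrophage genes in muscle. The adipocyte genes fell from 16.96, 27.97 and 40.8 CPM to 4.36, 8.02 and 17.8 CPM (5 of 5 genes, with 1 gene at 0 under IF). Cfd led them under AL, at a mean of 21.4 CPM, and Cidec under IF, at 8.34 CPM, so the sum does not describe each gene. The leukocyte and macrophage genes fell from 34.5, 47.8 and 66.2 CPM to 22.7, 32.4 and 45.5 CPM. The glia genes in liver fell from a median of 11.01 to 8.59 CPM with overlapping ranges. In muscle the 6 of 6 hepatocyte genes summed to 1.57, 4.74 and 11.9 CPM under AL and to 35.1, 85.6 and 210 CPM under IF, without overlap. Cyp2e1 carried this rise, with medians of 4.56 and 84.3 CPM. Alb had medians of 0.367 and 1.14 CPM, Ttr of 0.0138 and 0.0654 CPM and Apoa1 of 0.068 and 0.0443 CPM. Cps1 and Serpina1c had medians of 0 under both diets.

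With the mean log2 level of such a list as a covariate, every member called kept its call apart from Clock in liver. The lists given here moved with the diet themselves, and the liver endothelium sums did not overlap between the diets. These fits therefore cannot tell cell content from diet, and nothing is read from a kept or a lost call. For Arntl in liver the log2 fold change was -1.77 ± 0.23 (adjusted p = 4.21e-06) with the erythrocyte genes in the fit and -2.03 ± 0.26 (adjusted p = 9.53e-06) with the endothelium genes, and for Npas2 it was -7.17 ± 0.96 and -6.51 ± 1.03. For Arntl2 it was -1.96 ± 0.51 (adjusted p = 0.00569) and -1.85 ± 0.55 (adjusted p = 0.0205). In muscle, with the adipocyte genes in the fit, it was -0.88 ± 0.16 for Arntl and -0.41 ± 0.10 for Clock, both with an adjusted p of at most 0.00405. For Npas2 in muscle it was -2.67 ± 0.37. Since Npas2 passed the filter in liver and muscle only through its AL libraries, nothing is read from its calls in these fits. In cortex, with the glia genes, it was -0.51 ± 0.09 for Arntl (adjusted p = 0.00591) and -0.26 ± 0.07 for Clock (adjusted p = 0.0498). Covariates of the cortex endothelium genes, of the liver adipocyte and glia genes, of the hepatocyte genes in muscle and of the leukocyte genes were not tested.

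The size of the diet difference was then compared between tissues of mice 1 to 16, as tissue by diet terms with the mouse as a block. Liver and muscle differed for 3 of 4 members (31% of all genes): the liver log2 fold change was lower by -0.94 ± 0.17 for Arntl (adjusted p = 6.71e-05), -1.85 ± 0.33 for Arntl2 (adjusted p = 3.94e-05) and -3.85 ± 0.63 for Npas2 (adjusted p = 1.27e-05). Liver and cortex differed for the same 3 (26.7% of all genes), at -1.44 ± 0.18 for Arntl, -1.82 ± 0.33 for Arntl2 and -6.09 ± 0.52 for Npas2, with adjusted p of at most 6.18e-05. Muscle and cortex differed for Npas2 alone (3.80% of all genes), at -2.24 ± 0.48 (adjusted p = 0.00574), and the term for Arntl was -0.50 ± 0.17 (adjusted p = 0.110). The sizes for Npas2 rest on IF livers of which 5 of 8 held no count and on IF muscles with 2 to 14 counts. For Clock none of the 3 terms passed, and they lay between -0.25 and 0.04. For mice 25 to 40 no term passed for any member in edgeR, where 1 member (Arntl2) had an unadjusted p under 0.05 between liver and muscle, 1 (Arntl2) between liver and cortex and 0 between muscle and cortex. Of all genes, 0.00470% (1 gene), 0% (0 genes) and 0.00470% (1 gene) were called there, with 1648, 2037 and 1160 at an unadjusted p under 0.05; DESeq2 was not run on these terms.

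The diet difference was also compared between the mice labelled male and female, as the log2 fold change in mice 25 to 40 minus that in mice 1 to 16. In liver it passed for Arntl, at 1.18 ± 0.41 (adjusted p = 0.0310), and for Npas2, at 5.37 ± 0.94 (adjusted p = 7.11e-05), and not for Arntl2, at 0.997 ± 0.42 (adjusted p = 0.0773), or Clock, at 0.29 ± 0.20 (adjusted p = 0.310), where 23.7% of all genes passed. In muscle it passed for Clock, at 0.44 ± 0.14 (adjusted p = 0.0343), and Npas2, at 2.12 ± 0.64 (adjusted p = 0.0217), and not for Arntl, at 0.46 ± 0.29 (adjusted p = 0.326), or Arntl2, which went the other way at -0.21 ± 0.19 (adjusted p = 0.498), where 14.2% passed. In both tissues Npas2 failed the filter in mice 25 to 40 alone and entered this fit through AL mice 1 to 8, so nothing is read from its 2 calls. In cortex it passed for 0 of 4 members in edgeR, although Arntl, at 0.37 ± 0.11 (adjusted p = 0.0715), and Clock, at 0.21 ± 0.08 (adjusted p = 0.182), had an unadjusted p under 0.05; 2.03% of all genes passed, and DESeq2 was not run on this term. With the omitted library the cortex terms of Arntl and Clock were 0.30 (adjusted p = 0.320) and 0.17 (adjusted p = 0.475). Without AL mouse 2 and IF mouse 10 the liver term of Arntl was 1.10 (adjusted p = 0.0549), that of Arntl2 1.15 (adjusted p = 0.0453) and the muscle term of Clock 0.40 (adjusted p = 0.0553). Sex and the set of mice cannot be told apart, since each set carries 1 sex label.

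Under AL alone the activators already differed between these sets, a comparison that was added after the data were seen. In liver, Arntl was at 12.99 to 26.5 CPM in mice 1 to 8 and at 0.654 to 1.95 CPM in mice 25 to 32, a 19.5-fold difference of medians with no overlap. Clock (24.9 to 38.2 against 8.93 to 16.4 CPM) and Npas2 (1.94 to 14.8 against 0.149 to 0.869 CPM) did not overlap either, while Arntl2 did. The log2 fold change, mice 25 to 32 minus mice 1 to 8, was -4.25 ± 0.30 for Arntl (adjusted p = 1.15e-13), -1.45 ± 0.14 for Clock (adjusted p = 3.97e-10), -4.45 ± 0.62 for Npas2 (adjusted p = 1.37e-06) and -0.07 ± 0.29 for Arntl2 (adjusted p = 0.897). These are 3 of 4 members, and 20% of all genes were called. Npas2 was tested only because of its level in mice 1 to 8 (70 to 613 counts, against 6 to 35), so its call adds nothing to the separate ranges. Among the targets and repressors in the same AL livers, Dbp stood at 1.33, 6.12 and 27.3 CPM in mice 1 to 8 and at 193, 226 and 297 CPM in mice 25 to 32, Per3 at 3.55, 5.42 and 12.4 CPM and at 52.9, 118 and 204 CPM, and Cry1 at 2.83, 7.88 and 13.2 CPM and at 2.004, 3.96 and 5.69 CPM. Dbp and Per3 were thus higher, without overlap, in the set where Arntl was low, and the Cry1 ranges overlapped. These 3 genes are examples from the lists, and the share of all genes without overlap between the sets was not counted.

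In muscle 3 of 4 members differed between the sets under AL (38.4% of all genes). Arntl was lower in mice 25 to 32, by a log2 fold change of -1.42 ± 0.21 (adjusted p = 4.03e-06), as was Npas2, at -2.68 ± 0.44 (adjusted p = 1.33e-05), and Arntl2 was higher, at 0.53 ± 0.13 (adjusted p = 0.00167). No range of these 3 genes overlapped between the sets, but the share of all genes without overlap was not counted, so nothing is read from that number. Npas2 again entered the fit through AL mice 1 to 8 (32 to 56 counts, against 3 to 19), and its call adds nothing to its separate ranges. Clock did not pass, at -0.13 ± 0.10 (adjusted p = 0.309). In cortex 4 of 4 passed (12.6% of all genes), with smaller differences: -0.39 ± 0.08 for Arntl, -0.28 ± 0.06 for Clock, -0.46 ± 0.07 for Npas2 and 0.31 ± 0.10 for Arntl2 (adjusted p of 0.00133, 0.00175, 9.15e-05 and 0.0407). The ranges of these 4 genes overlapped, and Arntl2 did not pass with the omitted library, at 0.26 (adjusted p = 0.117), nor without AL mouse 2 and IF mouse 10, at 0.30 (adjusted p = 0.0773).

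Differences between tissues were tested among AL mice, with the mouse as a block and TMM scaling, under which most genes were called. In mice 1 to 8, 4 of 4 members passed between liver and muscle (79.2% of all genes), 2 of 4 between liver and cortex (83.4%) and 4 of 4 between muscle and cortex (80.2%). The counts in mice 25 to 32 were 2 of 4 (79.1%), 4 of 4 (84.0%) and 4 of 4 (80.5%). These shares are so high that the counts say little about the members. Sizes also depended on the scaling: TMM factors had medians of 0.864 in liver, 0.756 in muscle and 1.59 in cortex of mice 1 to 16, and the 10 most abundant genes took a median of 28.7% of the counts in AL liver, 26.6% in AL muscle and 7.49% in AL cortex. The median log2 difference of all genes between liver and cortex was -0.25 with TMM and -1.08 on library totals alone, and between muscle and cortex -0.24 and -1.29. On library totals the share of calls that were higher fell from 45.0% to 28.6% between liver and cortex of mice 1 to 8 and from 44.1% to 22.3% between muscle and cortex, and in mice 25 to 32 from 43.8% to 30.6% and from 44.2% to 24.0%.

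Npas2 kept its order on both scales. Its log2 difference in mice 1 to 8 between liver and cortex was -1.81 ± 0.21 with TMM (adjusted p = 1.42e-07) and -2.65 ± 0.22 on library totals, and between muscle and cortex -4.06 ± 0.23 (adjusted p = 4.22e-12) and -5.12 ± 0.25. In mice 25 to 32, where liver Npas2 was low, the difference between liver and cortex was -5.73 ± 0.32 with TMM. It was tested there because of its level in cortex, so nothing is read from the call; the ranges (0.149 to 0.869 against 24.96 to 38.95 CPM) were apart, and without a filter the difference was -5.78 ± 0.31. Arntl2 was also lower in liver than in cortex on both scales in mice 1 to 8, at -0.97 ± 0.21 (adjusted p = 0.000323) and -1.80 ± 0.22. Arntl and Clock depended on the scale: between liver and cortex Arntl differed by -0.01 ± 0.11 with TMM (adjusted p = 0.912) and by -0.85 ± 0.12 on library totals, Clock by 0.16 ± 0.09 (adjusted p = 0.113) and by -0.67 ± 0.10, and between muscle and cortex Arntl differed by 0.29 ± 0.11 (adjusted p = 0.0202) and by -0.76 ± 0.12. Arntl was lower in liver than in cortex on both scales in mice 25 to 32, at -3.94 ± 0.21 (adjusted p = 5.18e-13) and -4.58 ± 0.21, and lower in muscle than in cortex, at -0.81 ± 0.18 (adjusted p = 0.000367) and -1.70 ± 0.18. So was Clock in that set, at -1.06 ± 0.11 (adjusted p = 1.41e-08) and -1.69 ± 0.11 for liver and at -0.37 ± 0.10 (adjusted p = 0.00313) and -1.26 ± 0.11 for muscle.

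Levels of different genes were compared as CPM per kilobase of gene length, and the order of genes depends on the length given with the counts. On CPM alone Clock had the highest mean of the members in the liver of AL mice 1 to 8, at 30.4 against 20.1 CPM for Arntl. The same held in the cortex of AL mice 2 to 8, at 48.0 against 42.5 CPM for Npas2. In the cortex of AL mice 2 to 8 Npas2 stood at 8.87 ± 1.001, Arntl at 4.62 ± 0.66, Clock at 3.50 ± 0.38 and Arntl2 at 1.43 ± 0.11 CPM per kilobase (mean ± SD, n = 7). The order Npas2, Arntl, Clock held in 7 of 7 and 8 of 8 libraries of AL mice 2 to 8 and IF mice 9 to 16 and in 8 of 8 and 8 of 8 of mice 25 to 40. In the liver of AL mice 1 to 8 the means were 2.67 ± 0.64 for Arntl, 2.21 ± 0.33 for Clock, 1.61 ± 0.77 for Npas2 and 0.431 ± 0.154 for Arntl2 (n = 8). There Arntl was above Clock in 6 of 8 livers, against 0 of 8 under IF, where Clock led at 1.75 ± 0.27 and Arntl stood at 0.756 ± 0.193 CPM per kilobase. In the livers of mice 25 to 40 Arntl2 was above Arntl in 8 of 8 AL and 8 of 8 IF mice, at means of 0.456 ± 0.159 against 0.154 ± 0.065 under AL and 0.289 ± 0.091 against 0.0888 ± 0.0685 under IF. In muscle Arntl was above Clock in 8 of 8 AL and 8 of 8 IF mice of mice 1 to 16, and in 2 of 8 and 0 of 8 of mice 25 to 40.

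Ratios within a library do not depend on the scaling of libraries, and they were taken per gene length after adding 0.5 to each count. The log2 ratio of Npas2 to Clock in the liver of mice 1 to 16 was -2.35, -0.40 and 0.51 under AL (lowest, median and highest, n = 8) and -9.46, -8.98 and -3.95 under IF (n = 8). The groups did not overlap, and the means differed by -7.01 (exact permutation p = 0.000155, the smallest that 12870 splits allow, 2-sided; adjusted p = 0.000466 over 6 comparisons). As 5 of 8 IF livers held no Npas2 count, the size depends on the number added: with 1 added the difference was -6.36 and the IF median -7.98. In muscle it was -2.81, -2.03 and -1.40 under AL and -5.72, -3.90 and -2.94 under IF, again without overlap and with a difference of -1.996 (exact permutation p = 0.000155, adjusted p = 0.000466). Clock RNA thus exceeded Npas2 RNA per length in all 8 muscles of each diet, and in 7 of 8 AL livers. In cortex the ratio was positive in every library, with medians of 1.33 under AL (n = 7) and 1.54 under IF (n = 8), and the difference of 0.18 did not pass (exact permutation p = 0.0409, adjusted p = 0.0817), nor did it with the omitted library, also at 0.18 (adjusted exact permutation p = 0.0659). The differences in mice 25 to 40 were -1.25 in liver, -0.68 in muscle and 0.14 in cortex, with adjusted exact permutation p of 0.140, 0.373 and 0.140 (n = 8 each).

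The log2 ratio of Arntl2 to Arntl rose under IF in muscle of mice 1 to 16, from -4.06, -3.77 and -3.14 under AL to -2.81, -2.43 and -1.83 under IF (n = 8 each). The groups did not overlap, and the difference was 1.24 (exact permutation p = 0.000155, adjusted p = 0.000932 over 6 comparisons). In cortex it rose from -1.89, -1.77 and -1.12 (n = 7) to -1.23, -1.01 and -0.75 (n = 8), where AL mouse 4 lay within the IF range, by 0.67 (exact permutation p = 0.000777, adjusted p = 0.00233), and with the omitted library by 0.54 (adjusted exact permutation p = 0.0247). In liver both genes were lower under IF and the ratio did not pass, with medians of -2.55 and -2.46 and a difference of 0.29 (exact permutation p = 0.522, n = 8 each). Without AL mouse 2 and IF mouse 10 this liver difference was 0.078 (exact permutation p = 0.843). In mice 25 to 40 the differences were 0.40 in liver, 0.46 in muscle and 0.04 in cortex, with adjusted exact permutation p of 0.626, 0.309 and 0.709. The liver ratio was positive in 8 of 8 AL and 8 of 8 IF mice of that set and negative in all 16 of mice 1 to 16.

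**Figure D3:**
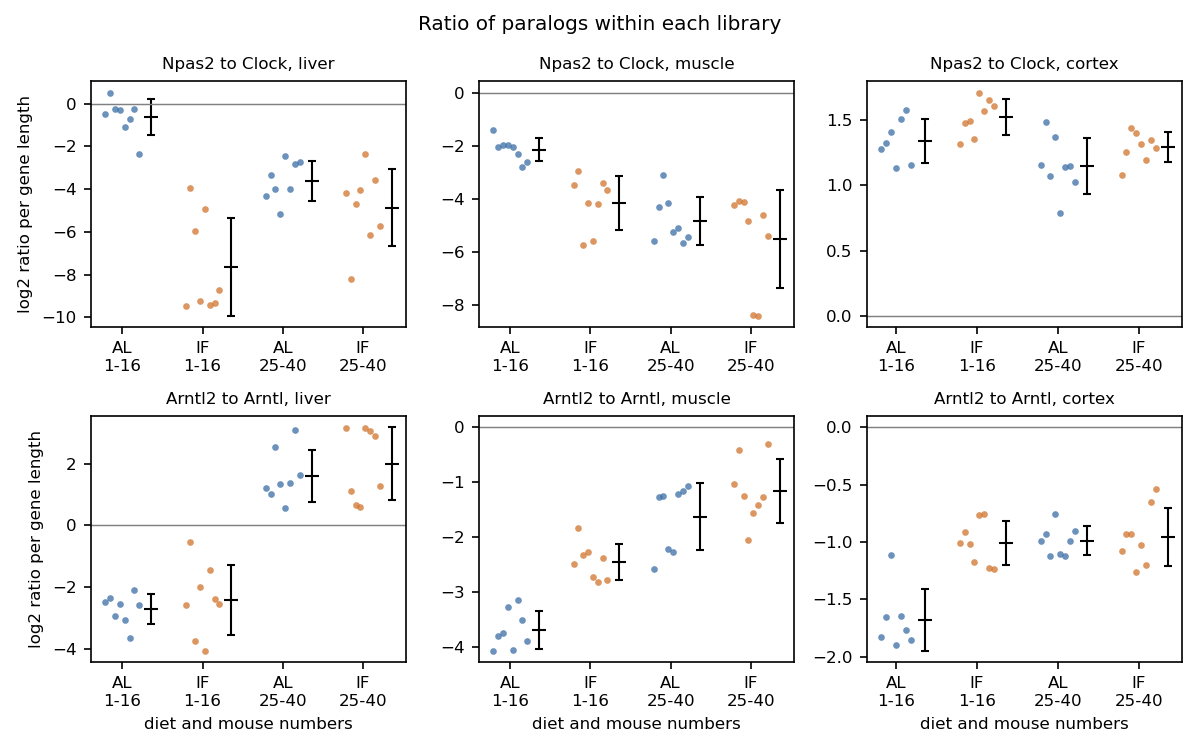
Log2 ratio per gene length of Npas2 to Clock (top) and of Arntl2 to Arntl (bottom) in each library, after adding 0.5 to each count, where a point is 1 mouse, the black mark is the mean ± SD of a group and the grey line is a ratio of 1. In liver the Npas2 to Clock ratio lies between -2.35 and 0.51 under AL and between -9.46 and -3.95 under IF in mice 1 to 16, and the Arntl2 to Arntl ratio is above the line in mice 25 to 40.

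Variation between mice of 1 group was described by correlating deviations of log2 CPM from the group means. Between 2 tissues of the same mouse, no relation of a member with itself passed: over 12 relations r ran from -0.19 to 0.35, and 0 had an adjusted permutation p under 0.05 (31 or 32 mice). The strongest was Arntl in muscle with Arntl in cortex, at r = 0.35 (permutation p = 0.0564, adjusted p = 0.631; rho = 0.29). Within a tissue, 4 of 15 relations passed. In cortex Arntl rose and fell with Clock over 31 mice, at r = 0.73 (permutation p = 2.0e-05, adjusted p = 0.0003) and rho = 0.69 (permutation p = 9.0e-05), with r = 0.72 without the 2 mice farthest out, 0.78 within mice 1 to 16 and 0.66 within mice 25 to 40. In muscle the same pair gave r = 0.52 (permutation p = 0.00847, adjusted p = 0.0318) and rho = 0.53 (permutation p = 0.00436) over 32 mice, with r of 0.59 and 0.49 within the sets, and without the 2 farthest mice r was 0.56 (adjusted permutation p = 0.0506). In liver it gave r = 0.52 (permutation p = 0.0188, adjusted p = 0.0563) and rho = 0.57 (permutation p = 0.00403), with 0.42 and 0.55 within the sets.

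Arntl was also set against a repressor and a target. In muscle Arntl deviated with Nr1d1, which encodes the repressor REV-ERB alpha, at r = 0.50 (permutation p = 0.00638, adjusted p = 0.0318) and rho = 0.51 (permutation p = 0.00504), with 0.32 within mice 1 to 16 and 0.56 within mice 25 to 40. Against Dbp, an E-box target, it gave r = -0.38 (permutation p = 0.00391, adjusted p = 0.0293) and rho = -0.46 (permutation p = 0.00538), with -0.47 and -0.48 within the sets. Without the 2 farthest mice r was 0.50 and -0.34, and neither passed (adjusted permutation p = 0.0630 for both). In liver and cortex Arntl and Nr1d1 gave r = -0.03 and -0.06, and Arntl and Dbp gave r = -0.22 (permutation p = 0.0244, adjusted p = 0.0610) and -0.40 (permutation p = 0.0593, adjusted p = 0.111). Npas2 was related to neither Arntl nor Clock in a way that passed, with r of -0.18 and 0.05 in liver, -0.06 and 0.04 in muscle and 0.42 and 0.18 in cortex. The cortex r of 0.42 with Arntl had a permutation p of 0.0376 (adjusted p = 0.0806), with 0.65 within mice 1 to 16 and 0.18 within mice 25 to 40. Outside AL mice 1 to 8 Npas2 held at most 35 counts in a liver and 19 in a muscle. The liver and muscle values therefore cannot show whether a relation is absent.

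Among genes of at least 5 CPM, those whose deviations were most like a member's were named for each tissue, as a description over libraries that share the scaling and depth of each mouse. In liver (32 libraries, 9815 genes) Arntl was most like Pld1 (r = 0.62), Dtx4 (0.61) and Smarcal1 (0.60) and most opposed to Atxn7 (-0.63), Clock was most like Itih3 (0.65) and most opposed to Cntfr (-0.67), and Arntl2 was most like Alg2 (0.65) and opposed to Nbr1 (-0.64). In muscle (32 libraries, 8863 genes) Arntl was most like Slc35f5 (0.78), Nsmaf (0.75) and Rabgef1 (0.72) and most opposed to Ltf (-0.73), Clock was most like Jmy (0.80), and Arntl2 most like Spry2 (0.62) and opposed to Tmem214 (-0.76). Npas2, with a mean of 0.495 CPM in muscle, was under the minimum of 1 CPM there, and in liver it was over the minimum only through AL mice 1 to 8, so no genes are named for it in these tissues. In cortex (31 libraries, 11847 genes) Arntl was most like Clpx (0.82), Nipbl (0.80) and Gm12960 (0.77) and most opposed to Gm2a (-0.71), Clock most like Eif4g2 (0.78) and opposed to Sgsh (-0.70), Npas2 most like Ocrl (0.84) and opposed to Ypel3 (-0.84), and Arntl2 most like Clasp1 (0.80). Larp7 was among the 5 most like genes of both Arntl (0.59) and Clock (0.58) in liver.

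Over the 12 group means, which mostly follow tissue, likeness was ranked among 15853 genes. Arntl was most like D430040D24Rik (r = 0.93), Fam110a (0.93) and Xlr3b (0.92), and Arntl2 was most like Tmem184c (0.99). Clock was most like Gfod2 (0.95), and Npas2 was most like 1700087I21Rik (0.97) and then Pnkd (0.97). Between members, r over these means was 0.84 for Arntl with Clock, 0.63 for Arntl with Npas2, 0.70 for Clock with Npas2, 0.87 for Arntl2 with Npas2, 0.41 for Arntl2 with Arntl and 0.44 for Arntl2 with Clock.

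Repressors and targets of the activators were counted as lists in mice 1 to 16, each beside the median of all genes tested. Of all genes, 3815 of 16204 were called as higher in liver, 1726 of 15025 in muscle and 699 of 18462 in cortex. In liver, where Arntl, Clock and Npas2 were lower, 5 of 5 Period and Cryptochrome genes were higher under IF, with a median log2 fold change of 1.34 against 0.06 for all genes; Per1 rose by 4.53 ± 0.29 (adjusted p = 1.80e-09) and Per3 by 2.22 ± 0.23 (adjusted p = 1.40e-07). Other repressors of the activators (Ciart, Bhlhe40, Bhlhe41 and Cipc) were higher in 4 of 4, with a median of 1.53 and Ciart at 3.92 ± 0.48. E-box output genes were higher in 7 of 8 and lower in 1, Nr1d1, with a median of 1.88; 5 of these 8 (Dbp, Per1, Per2, Nr1d1 and Tef) also stand in another list and are counted in both. Nr1d1 stood at 45.2, 72.2 and 132 CPM under AL and at 8.20, 19.4 and 30.3 CPM under IF, without overlap, a log2 fold change of -1.96 ± 0.26 (adjusted p = 7.44e-06). Both it and Arntl, which its protein represses, were lower in RNA, and an action of 1 on the other was not tested. Of the REV-ERB and ROR genes 2 of 4 tested were higher and 1 lower (median 0.50), and of the PAR bZIP factors with Nfil3 3 of 4 were higher (median 0.92). Kinases and ubiquitin machinery had 3 of 7 higher and 4 lower (median -0.30), led by the deubiquitinase Usp2 at 4.96 ± 0.18, and of the coactivators and the deacetylase Sirt1 1 of 5, Kat2b, was higher (median 0.03). Among other bHLH-PAS genes 2 of 9 tested were higher (median 0.18), Epas1 and Hif3a, a share near that of all genes.

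In muscle, Period and Cryptochrome genes were higher in 4 of 5 and lower in 1, Cry1, with a median of 1.05 against 0.01 for all genes. Nr1d1 fell there by 2.47 ± 0.12 on the log2 scale (adjusted p = 4.51e-10), from 168, 204 and 251 CPM to 26.99, 39.04 and 54.3 CPM without overlap, beside the fall of Arntl. REV-ERB and ROR genes had 3 of 4 higher and 1 lower (median 0.45), E-box output genes 4 of 8 higher and 1 lower (median 0.28), other repressors 1 of 4 higher and 2 lower (median -0.18), and PAR bZIP factors 2 of 4 higher (median 0.31). Kinases and ubiquitin machinery had 3 of 6 higher (median 0.21), coactivators 1 of 5 higher (median 0.18), and other bHLH-PAS genes 4 of 12 higher and 2 lower (median 0.13), among them Arnt at 0.54 ± 0.07 and Arnt2 at -1.79 ± 0.32.

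In cortex, where Arntl and Clock were lower and Npas2 did not pass, 3 of 4 other repressors were higher under IF (median 0.37 against -0.005 for all genes), with Ciart at 0.95 ± 0.12 (adjusted p = 0.000326). Of the Period and Cryptochrome genes 1 of 5, Per3, passed, at 0.54 ± 0.08 (adjusted p = 0.00190; list median 0.33). PAR bZIP factors had 2 of 4 higher, Dbp at 0.77 ± 0.12 and Tef at 0.47 ± 0.07, and Nfil3, their antagonist, lower at -0.67 ± 0.14 (list median 0.39). REV-ERB and ROR genes had 0 of 5 called by edgeR at an adjusted p under 0.05, with Nr1d1 at -0.03 ± 0.16 (list median -0.03), E-box output genes 2 of 8 higher (median 0.11), kinases and ubiquitin machinery 1 of 7 higher (median 0.03), coactivators 1 of 5 lower, Sirt1 (median -0.04), and other bHLH-PAS genes 1 of 13 higher, Hif3a at 2.19 ± 0.32, and 1 lower, Npas3 (median 0.006). For mice 25 to 40 no gene of any list was called by edgeR in any tissue, and the lists were not counted with DESeq2; the list medians for Period and Cryptochrome genes were 0.17 in liver, 0.21 in muscle and 0.16 in cortex, and Nr1d1 stood at -0.31 ± 0.16, -0.34 ± 0.18 and -0.07 ± 0.10.

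Promoters were searched for motifs through which the clock acts on its own genes, as letters on both strands of 300-base windows from RefSeq (GRCm38.p6), from 250 bases before to 50 after each start. All 4 members matched, with 7 windows: 2 of Arntl, 1 of Arntl2, 3 of Clock and 1 of Npas2. The E-box CACGTG was in 0 of 7 member windows and in 7.15% of all 32851 windows. The ROR half-site AGGTCA was in 2 of 7 (16.3% of all windows), 1 of Arntl and 1 of Clock, where it lay on the opposite strand 119 bases before the start. The longer ROR element ANTAGGTCA, which contains the half-site, was in 1 of 7 (0.661% of all windows), a window of Arntl, 29 bases after the start, and its variant ANTGGGTCA in 0 (0.791%). The D-box motifs TTATGTAA and TTACGTAA (0.938% and 0.119%) and the CRE motif TGACGTCA (1.79%) were in 0 of 7. The stretch around the Arntl match is printed because REV-ERB and ROR receptors act on Arntl through such elements. It had 1 exact match on chromosome 7 of GRCm39, at chr7:112806736-112806765 on the plus strand, and lay in exon 1, within the untranslated region, of 65 of the 73 annotated Arntl transcripts over it; capitals mark the 9 letters that match ANTAGGTCA.
Arntl: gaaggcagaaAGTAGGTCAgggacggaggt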

How the data were processed

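Poly-A RNA of liver, muscle and cortex was sequenced from directional libraries. The authors aligned reads to GRCm39 with HISAT2 2.0.5 and counted them per gene with featureCounts 1.5.0-p3, and the deposited values are raw counts without normalization. The authors' table also gives gene lengths in bases, used here for values per kilobase. CPM was computed here from the deposited counts and library totals.

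Genes were fitted with edgeR 4.0.16 (TMM, filterByExpr with a minimum count of 10, robust quasi-likelihood test; R 4.3.3) in each tissue and set of mice, and p-values were Benjamini-Hochberg adjusted over all genes tested, with 0.05 as the threshold. A gene passed the filter if it reached the minimum in about as many libraries as the smallest group held, whichever group these were in. The standard error of an edgeR log2 fold change was not given by the fit. It was taken as the size of the fold change divided by the square root of the quasi-likelihood F. Tissue terms had the mouse as a block, since the tissues come from the same mice. Ratios used exact permutation tests over all splits, 2-sided; correlations used 100000 permutations within groups, on log2 CPM with a prior count of 2 (Python 3.11.15, scipy 1.17.1). Alternatives were DESeq2 1.42.0, RLE size factors, no filter, a block, left-out libraries, marker covariates and library totals. The fits and statistics were tested on simulated data.

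The 4 members were always named. Also named were genes of the clock lists (Period and Cryptochrome genes, REV-ERB and ROR receptors, PAR bZIP factors with Nfil3, other repressors, kinases and ubiquitin machinery, coactivators and deacetylase, E-box output, other bHLH-PAS genes) and, for likeness, the 5 genes with the highest and the 3 with the lowest r. Marker lists covered hepatocytes, skeletal muscle, neurons, glia, erythrocytes, adipocytes, leukocytes and macrophages, endothelium and sex. Members and lists were chosen with earlier results of these data known. The cortex library of AL mouse 1 was left out because it went against its label. Counting error is covered by the fits only for genes that passed the filter.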

Additional observations from a re-analysis of the deposited data

Results flagged for a closer look

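In 6 of 72 groups (48 of member CPM and 24 of ratios), 1 mouse stood far from the others of its group by Dixon's criterion; chance gives about 1 in 20 groups. Arntl in the cortex of IF mouse 16 was at 31.3 CPM, with the nearest other IF mouse at 24.9 CPM. Arntl2 in the muscle of IF mouse 15 was at 2.12 CPM (nearest 1.62), Clock in the cortex of IF mouse 33 at 46.4 CPM (nearest 40.1), Npas2 in the cortex of AL mouse 7 at 52.7 CPM (nearest 42.9) and Npas2 in the liver of IF mouse 37 at 0.749 CPM (nearest 0.335). The log2 ratio of Arntl2 to Arntl in the cortex of AL mouse 4 was -1.12, with the nearest at -1.64.

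The diet effect differed between the sets of mice, by a test of the difference itself, for Arntl in liver (1.18, log2, mice 25 to 40 minus mice 1 to 16) and Clock in muscle (0.44), and neither passed without AL mouse 2 and IF mouse 10. The terms of Npas2 in liver (5.37) and muscle (2.12) also passed, but it was tested only because of its level in AL mice 1 to 8, so nothing is read from them. The diet effect differed between tissues of mice 1 to 16 for Arntl (-0.94, liver minus muscle; -1.44, liver minus cortex), Arntl2 (-1.85 and -1.82) and Npas2 (-3.85 and -6.09), and for Npas2 between muscle and cortex (-2.24). The sizes for Npas2 rest on few counts under IF, with 5 of 8 livers at 0.

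The cortex library of AL mouse 1, which was left out except where results with it are given for comparison, held 213 CPM of Xist although it was labelled male.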

How the results depend on the processing

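The hour of each mouse is not given in the sources used here and the 2 sets of mice differ in sex label, so level and phase, and sex and set, cannot be told apart. Small counts limit Npas2 outside cortex. Of the values recomputed in other ways, 133 of 138 diet effects of members, 60 of 60 tissue by diet terms, 20 of 20 ratios, 100 of 108 tissue differences, 25 of 28 differences of diet effect between sets, 26 of 28 differences between sets under AL, 47 of 54 correlations and 75 of 93 gene counts kept their sign and call. Library totals and the endothelium, adipocyte and glia covariates were added after the data were seen.

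The diet calls that were lost were those of Clock in liver and cortex. In liver of mice 1 to 16 it was -0.26 with the erythrocyte and -0.34 with the endothelium covariate, and in cortex -0.23 without AL mouse 2 and IF mouse 10 and -0.20 with the omitted library, none of which passed.

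AL and IF libraries paired by replicate number come from different mice. A fit with this replicate block gave -0.25 for Clock in cortex of mice 1 to 16 (adjusted p = 0.0964), which no longer passed, and -0.47 for Arntl (adjusted p = 0.0314). The IF library most like an AL library was its own pair in 0 of 8 (liver), 0 of 8 (muscle) and 0 of 7 (cortex) pairs of mice 1 to 16 and in 3, 1 and 1 of 8 of mice 25 to 40, and r within a pair reached 0.43 in muscle of mice 25 to 40, where it was over 0.1 in 4 of 8 pairs.

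Tissue differences of mice 1 to 8 moved with the scaling. On library totals Arntl was -0.088 between liver and muscle, -0.85 between liver and cortex and -0.76 between muscle and cortex, and Clock -0.67 between liver and cortex. Arntl between liver and cortex was 0.035 without the mouse as a block and 0.11 with the omitted library, and Clock 0.24 with it. Without a filter Arntl between muscle and cortex was 0.22.

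Without AL mouse 2 and IF mouse 10 the difference of diet effect between sets was 1.10 for Arntl in liver and 0.40 for Clock in muscle, which no longer passed (adjusted p = 0.0549 and 0.0553), and 1.15 for Arntl2 in liver, which then passed (adjusted p = 0.0453). Arntl2 in cortex differed between sets under AL by 0.30 without these mice and by 0.26 with the omitted library.

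The genes called in liver of mice 1 to 16 were 4284 with the erythrocyte and 3044 with the endothelium covariate. In cortex of mice 1 to 16 they were 2259 with DESeq2, 382 with the replicate block, 498 without AL mouse 2 and IF mouse 10 and 294 with the omitted library. In mice 25 to 40 DESeq2 called 6 in liver, 97 in muscle and 68 in cortex, edgeR without a filter 5 in muscle, and the replicate block and the erythrocyte covariate 0 each in cortex.

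Without the 2 farthest mice, r changed sign for Clock in liver with cortex (0.067), Npas2 in muscle with cortex (-0.0055), and in muscle for Arntl with Npas2 (0.10) and Npas2 with Clock (-0.16). In muscle it was 0.56 for Arntl with Clock, 0.50 with Nr1d1 and -0.34 with Dbp.

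Npas2 in liver and muscle of mice 25 to 40 failed the filter. Its values come from a fit without a filter, and RLE, DESeq2, the replicate block and the erythrocyte covariate gave none.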
